A study of Homo sapiens with 2 samples.

Results

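The mRNAs of 10 genes of cell division, MKI67, TOP2A, ASPM, CENPE, CENPF, NUSAP1, TPX2, CDK1, CCNB1 and TTK, were followed in RNA that came down with an immunoprecipitated protein. They were taken by symbol from a table of 25556 genes, and all 10 were listed. They had been chosen by their IP over input values in these libraries, so their ratios and peaks are given as a description, with no test. The samples were 2 libraries from Huh-7, an established human hepatocellular carcinoma line. One was the IP, which took 90% of the lysate, and the other the input, which took 10%. Both came from cells labelled WT and grown without any treatment. RNA immunoprecipitation sequencing (RIP-seq) compares the RNA bound to a precipitated protein with that of the whole lysate. The series text gives an antibody against SRSF7, a serine/arginine-rich splicing factor, for the IP. The sample protocol gives one against YTHDF2, a reader of the m6A mark on mRNA, so the libraries are named here only as IP and input.

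Cell division genes are transcribed in a wave before mitosis. A repressor complex called DREAM holds many of their promoters silent in resting cells, and the MuvB core with MYBL2 and FOXM1 turns them on late in the cycle, acting through a promoter element called the cell cycle homology region (CHR, usually TTTGAA) and through CCAAT boxes bound by NF-Y. Their products then condense the chromosomes, build the spindle, hold chromosomes to it and time the exit from mitosis. The Ki-67 protein of MKI67 coats mitotic chromosomes and is the common stain for dividing tumour cells, hepatocellular carcinoma included.

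RefSeq promoter sequences of GRCh38.p14 were available for 8 of the 10 genes, with 9 start sites. TPX2 and TTK were among those without an entry. In the 250 bases before the start, CCAAT in either orientation stood at least 2 times in 7 of the 8 genes, all but CENPE, against 9.53% of all 35116 promoters. TTTGAA in either orientation stood there in 4 of the 8, MKI67, TOP2A, ASPM and CDK1, against 13.3% of all promoters. Both motifs together were present in these 4 genes and in 4.69% of all promoters. The sequences of 4 genes from different places in the ranking below are shown, to let part of the shared elements be seen next to their unequal ratios. Each is written 5′ to 3′ on the strand of its gene, with each CCAAT box, each TTTGAA and the reverse complement of either in capitals, and bases inside an exon of the deposited table were left out except for CDK1.
MKI67, 120 bases up to the start, chr10:128126424-128126543, minus strand: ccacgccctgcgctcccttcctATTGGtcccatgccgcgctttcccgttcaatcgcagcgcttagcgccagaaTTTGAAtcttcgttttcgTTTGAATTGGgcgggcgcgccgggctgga
CENPF, 120 bases up to the start, chr1:214603075-214603194, plus strand: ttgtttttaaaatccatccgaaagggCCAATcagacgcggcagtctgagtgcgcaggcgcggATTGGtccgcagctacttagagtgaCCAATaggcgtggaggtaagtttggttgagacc
CCNB1, 105 bases ending 16 bases before the RefSeq start, chr5:69167030-69167134, plus strand: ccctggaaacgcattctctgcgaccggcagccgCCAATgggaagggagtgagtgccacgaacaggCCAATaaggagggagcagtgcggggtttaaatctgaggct
CDK1, 30 bases up to the second RefSeq start, chr10:60778448-60778477, plus strand: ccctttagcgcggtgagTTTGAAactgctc

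In MKI67, the TTTGAA that begins 29 bases before the start shares its last base with an inverted CCAAT box that begins 24 bases before it. CDK1 carried TTTGAA 13 bases before its second start. Its inverted CCAAT boxes at that start begin 78 and 46 bases before it, outside the stretch shown. CENPF and CCNB1 carried CCAAT boxes without TTTGAA in the window searched. Other forms of the CHR were not searched for, so its absence from these promoters is not shown. The motifs were therefore shared by the gene with the highest IP over input ratio of the 10, MKI67, and by one of the lowest, CDK1. A match of letters is a description of the sequence and shows no bound factor.

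The values were deposited as RPKM, reads scaled to the length of the merged exons and to the assigned reads of the library. They were exact multiples of 1 read, and gave 5897293 reads for the IP and 2782045 for the input. Of genes with 1 to 10 reads, 78.5% in the IP and 78.1% in the input had an even number, a pattern that arises when the 2 mates of a fragment are each counted. Ratios of the 10 genes therefore carry a 95% interval from the reads and a wider one from the reads divided by 2, and ratios of other genes and ratios between genes carry the wider one. Both cover counting error only, and no difference has a replicate check. All 10 hepatocyte markers looked up, among them ALB and AFP, were above 1 RPKM on average, with sums of 6090 RPKM in the IP and 7258 RPKM in the input. Of 7 erythroid markers 6 were listed, led by HBB, with sums of 698 RPKM in the IP and 1057 RPKM in the input. Of the leukocyte markers all 6 were listed, with sums of 75.5 RPKM in the IP and 145 RPKM in the input, mostly LYZ. The 3 listed fibroblast and 3 listed endothelial markers summed to 2.46 and 2.70 RPKM in the IP and to 1.64 and 3.99 RPKM in the input. The part of such RNA in the values of the mitotic genes was not tested. The IP over input ratio of SRSF7 mRNA was 1.11 (0.927 to 1.34), and for YTHDF2 mRNA it was 1.23 (0.847 to 1.85). Both intervals include 1.

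The 10 genes split 3 ways. MKI67, TPX2 and CENPF were higher in the IP by 2-fold or more on the scale of log2(RPKM + 1), CDK1 was lower by as much, and 6 lay between. Of the 14057 genes that averaged 1 RPKM or more over both libraries, a filter that all 10 passed, 11.3% were as much higher and 8.25% as much lower. The median log2 ratio was 0.36 over the 10 and 0.14 over all genes. CENPF, with a log2 ratio of 1.01, stood just inside the 2-fold line, and TTK, with -0.97, just outside it. Between them the 10 genes took 0.580% of IP reads and 0.220% of input reads, and MKI67 alone made up 59.9% of their reads in the IP and 32.5% in the input.

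**Figure D1:**
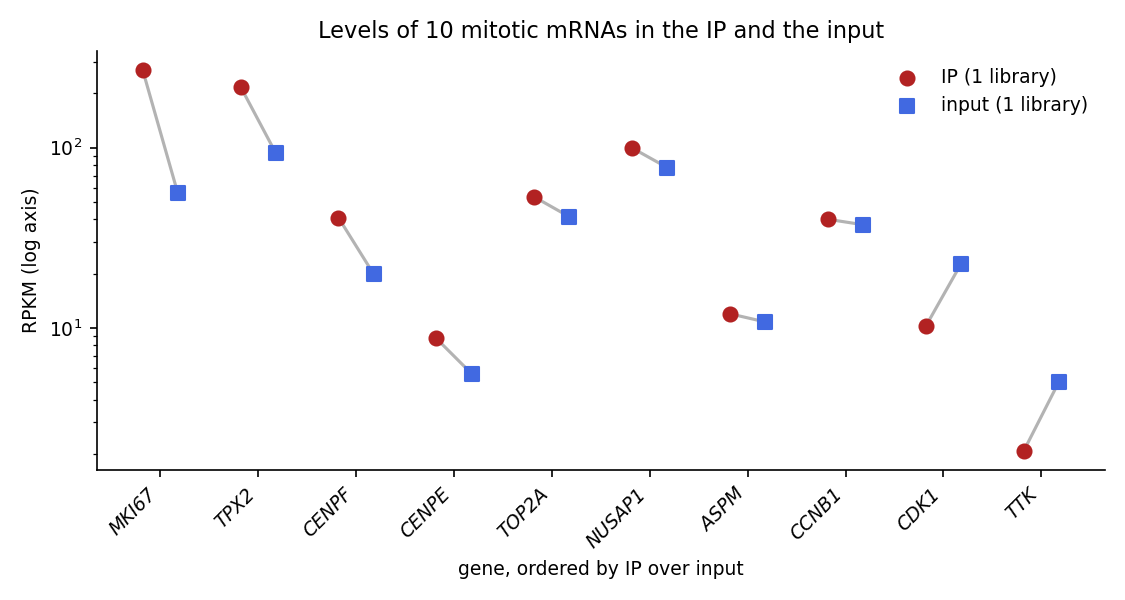
RPKM (log axis) of the 10 genes in the IP (red circles) and the input (blue squares), 1 library each, joined by a line per gene. MKI67 stood at 271 RPKM in the IP and 55.8 RPKM in the input, and the lines of CDK1 and TTK slope the other way.

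MKI67, the chromosome surface protein, was the member farthest from its input level. It had 271 RPKM in the IP (20494 reads) and 55.8 RPKM in the input (1993 reads), which made it number 170 of all genes by level in the IP and number 766 in the input. Its ratio was 4.85, with an interval of 4.63 to 5.08 from the reads and 4.55 to 5.18 from the reads divided by 2. By log2 ratio it was number 180 of all 14057 genes, and 46 of the 6427 genes averaging 5 RPKM or more lay above it. Of the 138 genes with at least as many input reads, 0 had a higher log2 ratio, and of the 2166 genes with at least 8000 bases of merged exons 2 had one. MKI67 itself has 12845 such bases (chromosome 10, 128096659 to 128126423, minus strand). TOP2A, the topoisomerase that untangles sister chromatids and the target of etoposide and doxorubicin, had 53.3 RPKM in the IP and 41.3 RPKM in the input. Its ratio was 1.29 (1.19 to 1.41, or 1.14 to 1.46 with the reads divided by 2), far below that of MKI67.

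Among the spindle proteins the ratios ran from 2.34 to 1.11. TPX2, which carries Aurora A to spindle microtubules and switches it on, had 218 RPKM in the IP (4640 reads) and 93.4 RPKM in the input (937 reads). That gave 2.34 times its input level (2.18 to 2.51, or 2.12 to 2.59). AURKA, its partner kinase, named for that role, was at 0.814 times (0.631 to 1.06), an interval that includes 1, and the ratio of TPX2 was 2.87 times that of AURKA (2.16 to 3.78). NUSAP1, which bundles spindle microtubules around chromatin, had 99.7 RPKM in the IP and 77.5 RPKM in the input, a ratio of 1.29 (1.18 to 1.40, or 1.14 to 1.45). A clone-named gene on the same strand, AC087721.2, shares 2938 bases with NUSAP1, 81.4% of its merged exons, and had 2268 IP and 824 input reads. The reads of NUSAP1 are uncertain for that reason, and the other 9 genes share no exon bases with a listed gene on their strand. ASPM, the spindle pole protein mutated in hereditary small brain size, had 11.98 RPKM in the IP and 10.8 RPKM in the input. Its ratio of 1.11 (0.973 to 1.27, or 0.923 to 1.34) could not be told from 1 at this depth.

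The kinetochore proteins also differed. CENPF, the large coiled-coil protein of the outer kinetochore that is also called mitosin, had 40.95 RPKM in the IP (2819 reads) and 19.9 RPKM in the input (646 reads). Its ratio was 2.06 (1.89 to 2.25, or 1.82 to 2.33), so that both intervals include 2. CENPE, the kinesin that carries chromosomes to the spindle equator, had 8.74 RPKM in the IP (512 reads) and 5.58 RPKM in the input (154 reads), a ratio of 1.57 (1.31 to 1.89, or 1.21 to 2.05). TTK, the checkpoint kinase also called MPS1, had 2.07 RPKM in the IP (56 reads) and 5.02 RPKM in the input (64 reads). It was 2.42-fold lower in the IP (1.67 to 3.53, or 1.41 to 4.18), the widest interval of the 10 relative to its value.

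The kinase that starts mitosis and its cyclin parted. CDK1, the catalytic subunit, had 10.2 RPKM in the IP (237 reads) and 22.7 RPKM in the input (248 reads). It was 2.22-fold lower in the IP (1.85 to 2.66, or 1.72 to 2.89). CCNB1, the cyclin B1 that activates CDK1, had 40.1 RPKM in the IP (575 reads) and 37.4 RPKM in the input (253 reads), a ratio of 1.07 (0.923 to 1.25, or 0.869 to 1.34). The ratio of CCNB1 was 2.38 times that of CDK1 (1.70 to 3.37). CCNA2 and CCNB2, the other mitotic cyclin partners of CDK1, named for that role, were at 0.713 times (0.564 to 0.911) and 0.740 times (0.527 to 1.05) their input level, and the interval of CCNB2 includes 1.

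**Figure D2:**
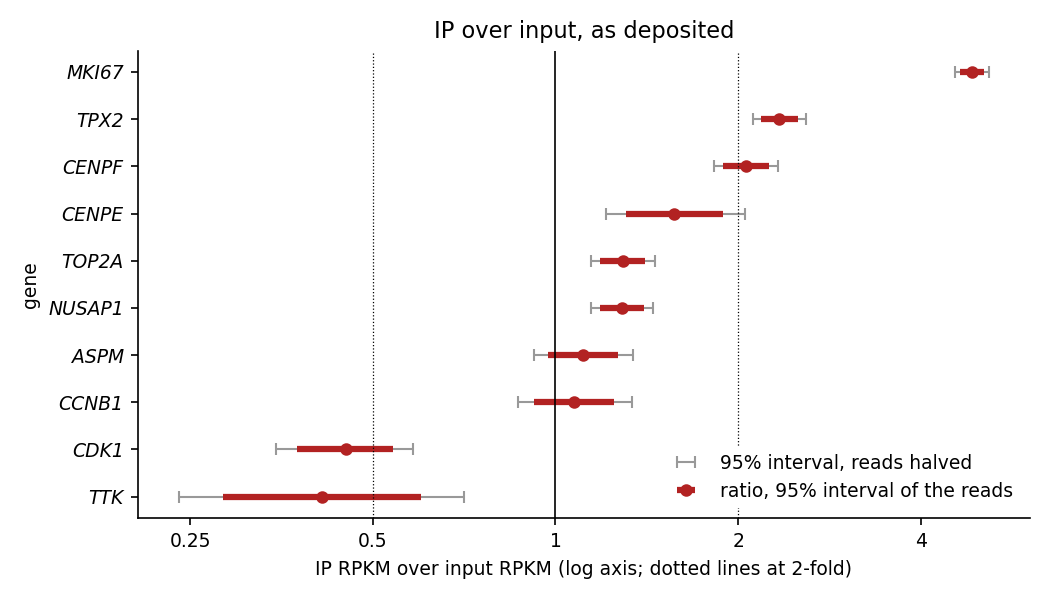
IP RPKM over input RPKM of each gene (log axis) with its 95% counting interval from the reads (red) and from the reads divided by 2 (grey); the dotted lines mark 2-fold. MKI67 stands apart at 4.85, 7 genes lie from 2.34 to 1.07, and CDK1 and TTK lie below 0.5.

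In order of the ratio, the genes were MKI67, TPX2, CENPF, CENPE, TOP2A, NUSAP1, ASPM, CCNB1, CDK1 and TTK. Of the 9 neighbouring pairs in this order, 7 could not be told apart by counting error with the reads divided by 2. The steps that could were from MKI67 to TPX2, where the ratio of MKI67 was 2.08 times that of TPX2 (1.84 to 2.34), and from CCNB1 to CDK1. Such comparisons between genes do not depend on how the libraries are scaled. From end to end, the ratio of MKI67 was 10.8 times that of CDK1 (8.26 to 14.1) and 11.8 times that of TTK (6.82 to 20.3). On the deposited scale 6 genes had both intervals above 1, ASPM and CCNB1 had intervals that include 1, and CDK1 and TTK had both below 1. With the IP scaled to the reads of protein-coding genes, TOP2A (log2 ratio -0.02), NUSAP1 (-0.03), ASPM (-0.22) and CCNB1 (-0.28) turned to the other side of 0. With both libraries scaled to the same RPKM sum, CDK1 turned to 0.10 and TTK moved to -0.02, while all genes together had a median of 1.21.

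The authors' list of regions enriched in the IP held 26 peaks in 7 of the 10 genes. Peaks lay in 21.5% of all genes that passed the filter. The share was 39.3% among genes with 100 to 500 input reads and 49.0% among genes with at least 8000 bases of merged exons, where 4 of the 10 belong. CENPF carried 12, MKI67 7, TPX2 and ASPM 2 each, and CENPE, TOP2A and CCNB1 1 each, whereas none was placed in NUSAP1, CDK1 or TTK. For NUSAP1 this may depend on the placement rule. AC087721.2 shares 81.4% of its merged exons, and a peak that overlapped both equally would be given to AC087721.2. Whether any listed peak did so is not shown here. In the whole list 32 genes had more peaks than CENPF. Fold enrichments are the authors' own, on a scale not given in the sources used here. They ran from 2.02 to 8.58 over the 26 peaks, with a median of 2.496, against 2.71 for all 7643. In the authors' deposited table, the false discovery rate was above 0.05 for 8 of the 26 and for 39.7% of all peaks.

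**Figure D3:**
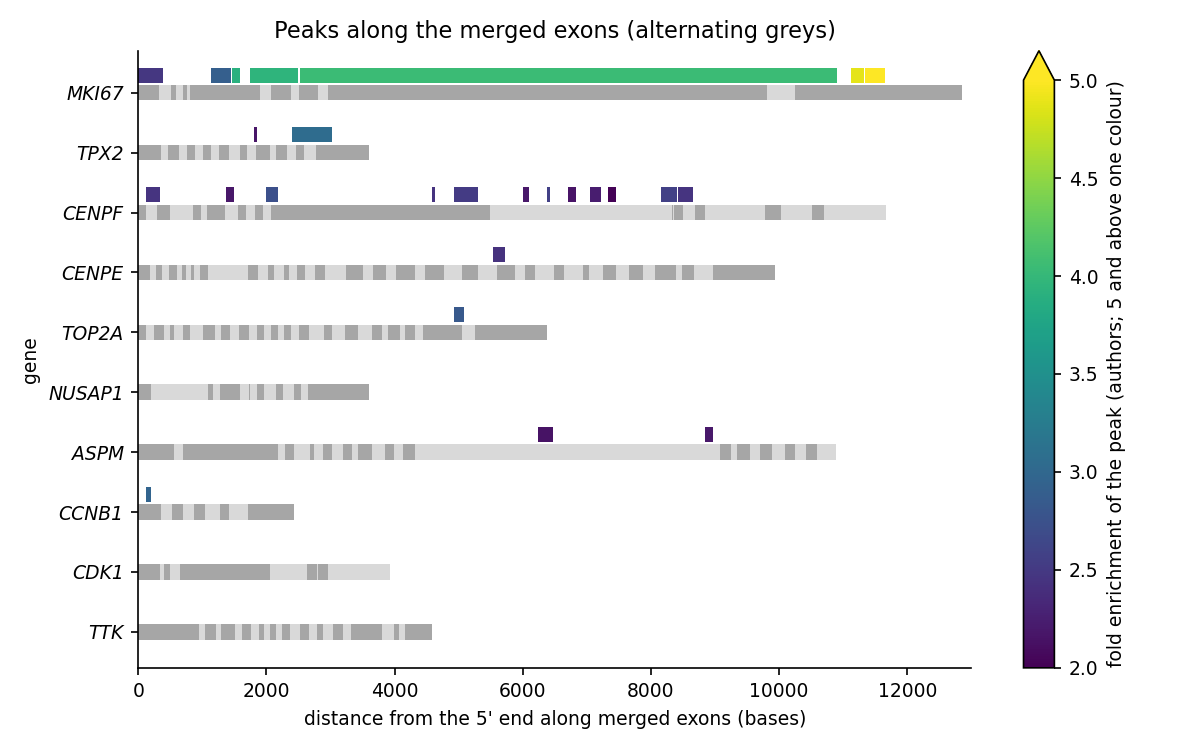
Position of the authors' peaks (coloured bars, by fold enrichment) above the merged exons of each gene (alternating greys), as distance in bases from the 5′ end. Peaks cover 81.4% of MKI67 and stand as short separate regions along CENPF, and none was placed in NUSAP1, CDK1 or TTK.

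Peaks ran along most of the MKI67 mRNA, but none lay in merged exons 3 to 6 or beyond base 11646. They covered 10452 of its 12845 merged exon bases, or 81.4%, and made up 75.1% of all bases under peaks in the 10 genes. The largest peak (chromosome 10, 128098608 to 128111802) took in 8376 exonic bases from merged exon 11 to 15. It held all 6845 bases of exon 13, the giant exon that encodes the Ki-67 repeats and makes up 53.3% of the merged exons. In the authors' deposited table it had a fold of 4.05 and a p-value listed as 0. The first peak began at the annotated start of the gene, directly after the promoter bases shown above, and covered 392 bases of exons 1 and 2. The folds of the 7 peaks were, from the 5′ to the 3′ end, 2.47, 2.90, 3.90, 3.96, 4.05, 4.87 and 8.58. Each was higher than the one before it, an order noticed after the values were seen. Of the 58 genes with 7 peaks, MKI67 itself included, MKI67 was the 1 with such an order and 0 had the opposite one. Among the 121 genes with 5 peaks, 3 had rising and 4 had falling folds, and among the 81 with 6 peaks 0 had either. These counts are a description and give the order no support. In the authors' numbering the 7 peaks are 5345 and 5347 to 5352, so the number between the first and the second was not placed in MKI67. The last 2 peaks lay in exon 15, at 11121 to 11321 and 11346 to 11646 bases from the 5′ end. In the authors' deposited table, the false discovery rate was 0.0541 for the first peak, 0.0709 for the third and 0.051 for the last, so 3 of the 7 peaks in this order lay above 0.05.

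CENPF had the most peaks of the 10 but little of its length under them. Its 12 peaks covered 2002 of 11673 merged exon bases, or 17.2%, with folds from 2.02 to 2.73. Of these peaks 9 touched merged exons 13 and 14, which are 3404 and 2844 bases long and make up 53.5% of the mRNA. In the authors' deposited table, the smallest p-value of the gene, 3.22e-09, belonged to a peak that ran from exon 14 to 17 at 8152 to 8402 bases from the 5′ end (chromosome 1, 214647227 to 214648724). No peak of CENPF lay beyond base 8652.

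TPX2 carried its enrichment near the 3′ end. Its larger peak (chromosome 20, 31794479 to 31801225) covered 626 bases of merged exons 16 to 19, at 2400 to 3025 of 3605 bases. In the authors' deposited table it had a fold of 3.04 and a p-value of 1.8e-38, number 67 of all peaks by p-value. The smaller one took in 51 bases of exons 12 and 13 with a fold of 2.17.

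The other 4 genes with peaks had 2 to 3% of their merged exons under them. Both peaks of ASPM (folds 2.15 and 2.19) lay in merged exon 18, the long exon of 4755 bases that encodes most of its calmodulin-binding IQ repeats. The peak of CENPE (fold 2.43) took in 201 bases of exons 32 and 33 of 49, and that of TOP2A (fold 2.83) 151 bases of exons 33 and 34 of 35. CCNB1 was the exception in place, with its single peak (fold 2.95) in exon 1, at 125 to 200 bases from the 5′ end. In the authors' deposited table, the false discovery rate was 0.0623 for the peak of TOP2A and 0.0597 and 0.0549 for the peaks of ASPM, all above 0.05, and 0.0302 for that of CENPE and 0.0193 for that of CCNB1. The ratio of CCNB1 over the whole gene was 1.07. All peaks of TPX2, CENPE, TOP2A and ASPM were centred past the midpoint of the merged exons. Over the 10 genes this held for 61.5% of peaks, against 39.3% of the whole list, and 12 of the 26 peaks belong to CENPF alone. The smaller peak of TPX2 was centred at 50.6% of the merged exons. The largest peak of MKI67, counted here too, was centred at 52.2% and lies on both sides of the midpoint.

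Among the 10 genes, which were chosen by their ratios, length and depth rose with the ratio, while over all genes depth did not. Across the 10 genes, Spearman's rho with the log2 ratio was 0.44 for merged exon length and 0.72 for input reads, and Pearson's r was 0.49 and 0.80 with both measures on a log10 scale. The points share the same 2 libraries and these values carry no p. Across all 14057 genes, the rho was 0.16 for length and -0.04 for input reads. The 2166 genes of at least 8000 bases had a median log2 ratio of 0.34, with 11.6% at least 2-fold higher and 0.646% lower. MKI67 (2.26), CENPF (1.01) and CENPE (0.57) lay above that median and ASPM (0.14) below it. Among the 3174 genes of 2000 to 4000 bases the median was 0.09, and TPX2 (1.22) and CDK1 (-1.08) lay on opposite sides of it. The part of length and depth in the ratios was not tested.

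**Figure D4:**
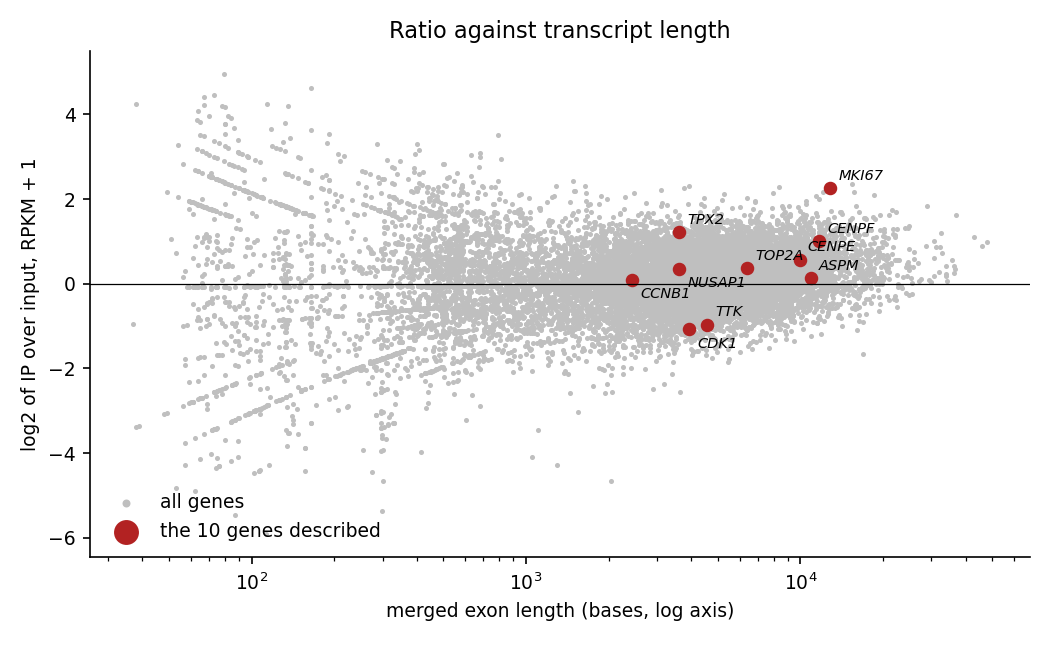
Log2 ratio of IP over input (RPKM + 1) against merged exon length in bases (log axis) for the 10 genes (red, labelled) and the 14057 genes that passed the filter (grey). MKI67 stands near the upper edge of long genes at 2.26, and CDK1 and TTK lie below 0 at -1.08 and -0.97.

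The wider machinery of mitosis held both higher and lower genes. Of 154 other mitotic genes, all measured, 11 were at least 2-fold higher (7.14%) and 6 lower (3.90%), on the scale of log2(RPKM + 1), against 11.3% and 8.25% of all genes. These shares differ with length. Among genes of 4000 to 8000 bases 7.65% were higher and 2.38% lower, and among those of 2000 to 4000 bases 6.99% and 6.08%. The 154 genes have a median length of 4519.5 bases. Their median log2 ratio was 0.10, and 58 carried a peak (37.7%, against 21.5% of all genes). Peaks lay in 29.6% of all genes with 4000 to 8000 bases. By depth the share was 14.7% below 100 input reads and 39.3% at 100 to 500. Without the pseudocount, counted after the values were seen, 19 of the 154 were at least 2-fold higher (12.3%) and 15 lower (9.74%), against 15.0% and 12.9% of all genes. The medians of the 8 lists below hold on the deposited scale, where 5 were above 0 and 3 below. All 8 were below 0 with scaling to protein-coding reads (all genes -0.16) and above 0 with the same RPKM sum in both libraries (all genes 1.21). The 10 had been picked with their values known, so the lists are set beside them with no test. The mitotic kinase, cyclin and phosphatase list held the gene nearest to MKI67, INCENP, the scaffold of the chromosomal passenger complex. It had 258 RPKM in the IP and 62.6 RPKM in the input, a ratio of 4.12 (3.71 to 4.59) with 4 peaks, and the ratio of MKI67 was 1.18 times as high (1.04 to 1.33). CDCA8, or borealin, of the same complex was at 2.91 times (2.21 to 3.89), while PBK was lowest at 0.413 times (0.187 to 0.903), a log2 ratio of -0.99 on the log2(RPKM + 1) scale. On that scale 2 of these 22 genes (9.09%) were higher and 0 lower by 2-fold, with a median of 0.15.

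Spindle assembly and cytokinesis genes had 4 of 34 higher (11.8%) and 0 lower (median 0.30). Over all genes 11.3% were higher and 8.25% lower, and over genes of 4000 to 8000 bases 7.65% and 2.38%. The list has a median length of 5053 bases. The highest log2 ratios were those of TACC3, a spindle microtubule protein, at 2.75 times (2.45 to 3.10) and KIF2C, a kinesin that shortens microtubules, also at 2.75 times (2.06 to 3.80). The cytokinesis kinase CIT, named after its value was seen, had the highest ratio without a pseudocount, 2.86 times (2.11 to 3.95). At the low end, without a pseudocount, KNSTRN was 1.62-fold lower (1.27 to 2.04). HAUS2 was 2.05-fold lower (0.966 to 4.65), an interval that includes 1. Both had a log2 ratio of -0.66 on the log2(RPKM + 1) scale. Mitotic transcription regulators had 2 of 17 higher (11.8%) and 0 lower (median 0.27). They were the E2F partner TFDP1 at 2.72 times (1.88 to 3.999) and MYBL2, which acts with the MuvB core on the promoters of these genes, at 2.04 times (1.79 to 2.33). Cohesin genes had 2 of 17 higher (11.8%) and 1 lower (5.88%, median 0.18). The ring subunit SMC1A was at 2.55 times (2.41 to 2.71) and SGO2, a protector of centromeric cohesin, was 2.34-fold lower (1.70 to 3.24). None of the 8 condensin genes passed 2-fold (0 higher, 0 lower, median 0.18), with NCAPD2 highest at 1.83 times (1.57 to 2.14).

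Kinetochore, checkpoint and anaphase-promoting complex genes had list medians below that of all genes. The centromere and kinetochore list had 0 of 28 higher and 2 lower (7.14%), with a median of -0.30. Over all genes 11.3% were higher and 8.25% lower, and over genes of 2000 to 4000 bases 6.99% and 6.08%. The list has a median length of 3297.5 bases. SKA2, of the complex that couples kinetochores to microtubules, was 2.41-fold lower (1.997 to 2.93) and CENPK, of the inner kinetochore, 2.72-fold lower (1.98 to 3.82). Both lay on the side of TTK. The 2 highest genes of the list, CENPT at 1.87 times (1.30 to 2.73) and HJURP at 1.42 times (1.16 to 1.74), lay on the side of CENPF and CENPE. The spindle checkpoint list had 0 of 9 higher and 1 lower (11.1%, median -0.07). Its lowest gene was MAD2L1, the checkpoint effector, 3.59-fold lower (2.34 to 5.58), and its highest was MAD1L1, the binding partner of that protein, at 1.91 times (1.59 to 2.31). The anaphase-promoting complex list had 1 of 19 higher (5.26%) and 2 lower (10.5%, median -0.07). The ubiquitin-conjugating partner of the complex, UBE2S, was at 2.17 times (1.66 to 2.87) and the subunit ANAPC10 was 4.32-fold lower (2.68 to 7.12).

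**Figure D5:**
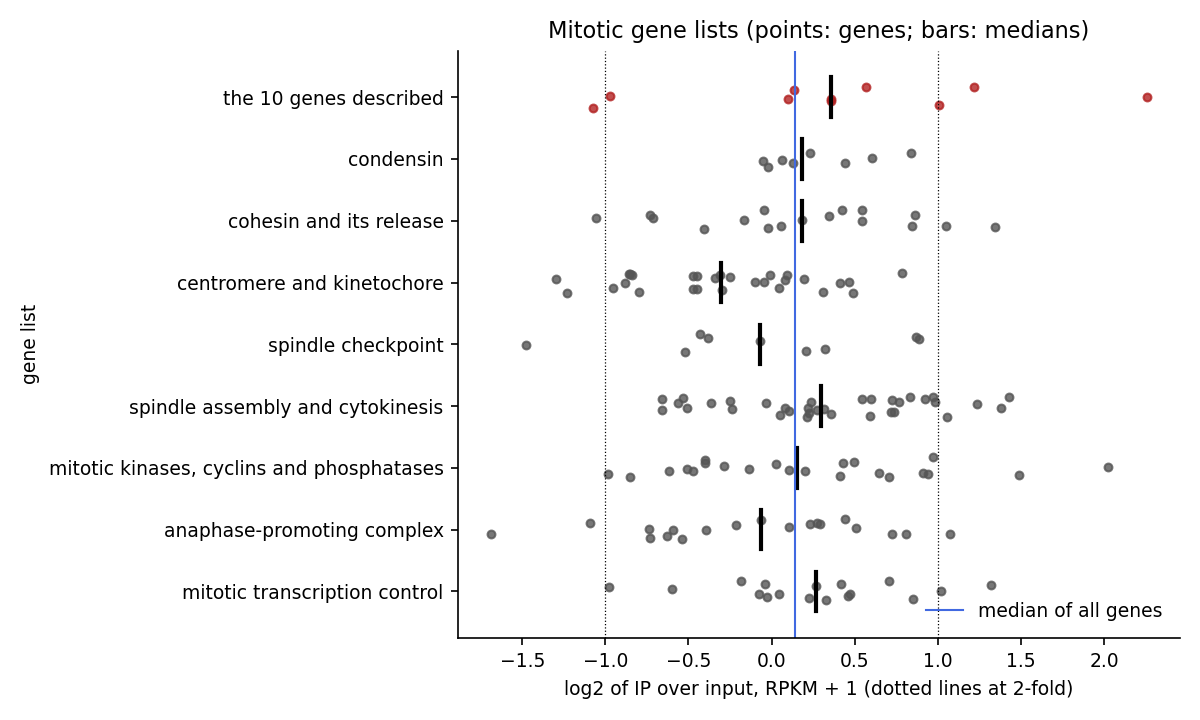
Log2 ratio of IP over input (RPKM + 1) of each gene in the mitotic lists (points), with list medians (black bars), the median of all genes (blue line, 0.14) and 2-fold lines (dotted). MKI67 at 2.26 and INCENP at 2.03 are the points farthest to the right, and the centromere and kinetochore list has the lowest median, -0.30.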

How the data were processed

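RIP-seq was done on Huh-7 cells with 1 IP and 1 input library, grouped by their titles. The submitters' processing notes name Trimmomatic for trimming and STAR 2.5.3a for alignment. Not given in the sources used here are the read counter, gene models, peak calling method and build. Gene values are RPKM deposited by the authors. Multiplied by gene length they add up to 1 common total per library, and all values were whole multiples of 1 read (within 0.01 of a read), from which reads were recovered. The deposited peak table gives a fold enrichment (ratio), a p-value and a false discovery rate per peak. Molecular tags of 8 bases were used per the labels' protocols, and whether they entered counting is not stated. For 4 of the 10 genes both ends equal those of RefSeq on GRCh38.p14, as for 27.8% of matched genes.

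The 10 genes and all lists were chosen with earlier results of these data known. The main value was log2((IP + 1)/(input + 1)) on RPKM for genes averaging 1 RPKM or more. Single ratios are without pseudocount, with exact conditional (Clopper-Pearson based) 95% intervals, and ratios between genes have exact conditional intervals of the odds ratio. No p-value was computed. Each peak was given to the gene that shares most exonic bases with it on the same strand (at least 1) and, since the table gives spans only, was taken to cover every merged exon base within its span. A tie went to the symbol that comes first in the alphabet. Merged exons are numbered 5′ to 3′. Named genes were the 10, SRSF7, YTHDF2 and, of the 2 highest and 2 lowest in each list, those described. AURKA, CCNA2 and CCNB2 were added for their roles. The other settings tried are a pseudocount of 0.1 or 5, no filter, 3 scalings, stricter peak thresholds and another placement rule. Recovery and the intervals from undivided reads were tested on simulated reads drawn independently, unlike paired mates. Placement was tested on a made-up peak without a tie. The intervals from the reads divided by 2 were not tested. The tools were scipy 1.17.1 for intervals, pandas 2.3.3 and numpy 2.4.6 for tables, and matplotlib 3.10.9 for plots, under Python 3.11.15.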

Additional observations from a re-analysis of the deposited data

How the results depend on the processing

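The log2 ratio of MKI67 stayed between 1.87 and 3.51 under every setting tried. The median log2 ratio of the 10 genes was 0.36 as deposited, -0.025 with the IP scaled to the reads of protein-coding genes and 1.61 when both libraries had an equal RPKM sum. Under those scalings 1 and 8 of the 10 genes were at least 2-fold higher, in place of 3. There were 2 with a pseudocount of 5 RPKM and after centring, where CENPF fell short of 2-fold (log2 ratios 0.88 and 0.87), and with scaling to protein-coding reads both CENPF (0.63) and TPX2 (0.83) did so. At least 2-fold lower were 2 genes, in place of 1, with a pseudocount of 0.1 RPKM, after centring on the median of all genes and when scaled to protein-coding reads. There were 0 with a pseudocount of 5 RPKM or an equal RPKM sum. Without a pseudocount, a setting chosen after seeing the data, 3 were higher and 2 lower. The second lower gene was TTK in each of the settings with 2. CDK1 turned to a log2 ratio of 0.10 at an equal RPKM sum, and TTK moved to -0.02. All these shifts follow from the constructions themselves. Of the log2 ratios of single genes under other settings, 35 moved by less than their counting interval and the others by more. Besides CDK1, those of ASPM and CCNB1 changed sign after centring, and those of TOP2A, NUSAP1, ASPM and CCNB1 when scaled to protein-coding reads. Higher genes made up 57.9% of all 2-fold calls as deposited, 44.6% after centring, 29.7% when scaled to protein-coding reads and 94.98% at an equal RPKM sum. With a false discovery rate of at most 0.01, 10 of the 26 peaks were left, in 3 genes, and with a fold of at least 3, 6 peaks in 2 genes. Placing a peak only where at least 50% of its exonic bases lay in the gene changed neither count. No paired analysis was possible because each group has 1 library. Depth limits TTK most, with 56 IP and 64 input reads.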
